A study of Mus musculus with 6 samples.

Results

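The 9 genes described here are mRNAs by which B cell precursors are usually recognized: Pax5, Ebf1, Cd79a, Cd79b, Igll1, Vpreb1, Rag1, Rag2 and Dntt. They were taken by symbol from the 41255 genes listed, and all 9 were found. The cells measured were Ba/F3, an interleukin-3-dependent lymphoid line of the mouse that is commonly described as pro-B. Each culture was monoclonal and carried a retroviral human RPL10 cDNA, while an shRNA against endogenous mouse Rpl10 was present in all of them. The WT group (clones 28, 29 and 36) expressed wild-type RPL10, and the R98S group (clones 11, 13 and 35) expressed RPL10 in which residue 98 is serine and not arginine, a mutation found in T-cell acute lymphoblastic leukemia. All cultures received cycloheximide (100 µg/ml, 5 min) before RNA was isolated, and 1 mRNA library was made per clone. Each clone descends from a single cell, so a property of the founder cell and an effect of the RPL10 form cannot be told apart within 1 clone, and no untransduced Ba/F3 cells were included.

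In early B cell development, the transcription factor EBF1, together with E proteins, turns on the B lineage program, and PAX5 then locks cells into it. RAG1 and RAG2 cut the immunoglobulin heavy chain locus, and terminal deoxynucleotidyl transferase (Dntt) adds bases at the joints. A finished heavy chain is first displayed with the surrogate light chain, made of VPREB and λ5 (Igll1), and with CD79A and CD79B, the membrane proteins that pass its signal into the cell.

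The libraries held between 21786776 and 24204991 reads, and 18890 to 19958 genes had at least 1 read in a library. Values are normalized counts, that is, reads divided by a size factor of each library, so that 1 read was worth 0.92516 (R98S clone 35) to 1.0746 (WT clone 29). A gene was called silent with at most 3 reads in every library, scarce with more than 3 reads in some library but a mean normalized count under 10, and expressed with a mean of at least 10. Silent therefore means not distinguishable from 0 at this depth. Mouse Rpl10, the gene targeted in every clone, lay between 1883 and 3156 normalized counts, with means of 2637 in WT and 2509 in R98S cells (log2 difference of -0.07, adjusted p = 0.871 by limma), and reads of the human transgene could be among them. The paper states that cultures were selected by qPCR for knock-down of endogenous Rpl10. Without untransduced cells, these counts do not measure that knock-down.

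Most of these B cell precursor genes were silent or scarce in the Ba/F3 clones. Of the 9 genes, 2 were expressed (Cd79a and Cd79b), 2 were scarce (Ebf1 and Rag2) and 5 were silent (Pax5, Igll1, Vpreb1, Rag1 and Dntt). Over all 20596 protein-coding genes of the table, 50.8% were expressed, 13.7% scarce and 35.6% silent. Comparing the genotypes, Cd79b was 2.22-fold higher in R98S than in WT cells and passed the test, whereas Cd79a did not.

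**Figure D1:**
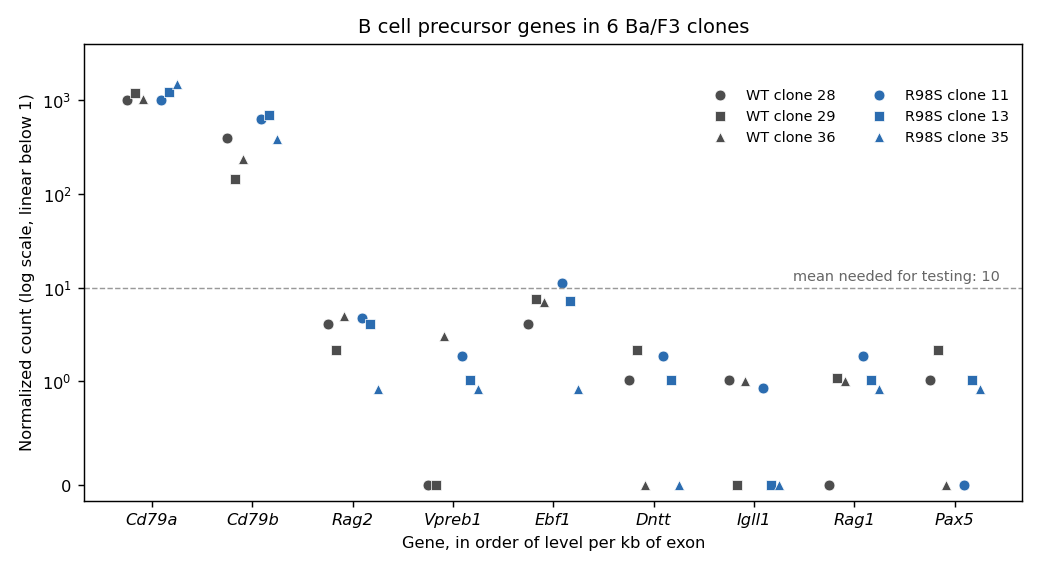
Normalized count of each of the 9 genes in each clone (vertical axis, logarithmic above 1 and linear below), with WT clones in grey and R98S clones in blue and the genes ordered by level per kb of exon. Cd79a and Cd79b lie between 142.9 and 1507 in all clones, while the other 7 genes stay at or below 11.26.

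The transcription factors at the head of the program were close to the floor of 3 reads. Pax5 (chromosome 4, 44524757 to 44710487, minus strand) gave 1 read in WT clone 28, 2 in WT clone 29, 0 in WT clone 36, 0 in R98S clone 11 and 1 each in R98S clones 13 and 35. Ebf1 (chromosome 11, 44617317 to 45008091, plus strand) gave 4.10, 7.52 and 7.01 normalized counts for WT 28, 29 and 36, and 11.26, 7.14 and 0.925 for R98S 11, 13 and 35. Ebf1 thus exceeded 3 reads in 5 of the 6 libraries, R98S clone 35 being the exception with 1 read, and the highest and the lowest value both came from R98S clones. With 38 reads in all, Ebf1 was too scarce for the comparison between genotypes.

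The recombination genes were also at or near the floor. Rag1 (chromosome 2, 101638282 to 101649501, minus strand) had 6 reads over the 6 libraries and at most 2 in any of them. Its neighbour Rag2 (chromosome 2, 101624718 to 101632529, plus strand) gave 4, 2 and 5 reads for WT 28, 29 and 36, and 5, 4 and 1 reads for R98S 11, 13 and 35. Rag2 lay above 3 reads in 4 libraries, of both genotypes, and its groups overlapped. Both genes share exon bases with B230118H07Rik (mean normalized count 638), 80 bases on the same strand for Rag1 and 208 bases on the opposite strand for Rag2, so the few reads may belong to that gene. Dntt (chromosome 19, 41029275 to 41059525, plus strand), which shares no exon base with another gene, had 6 reads in all and at most 2 in a library.

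Neither gene of the surrogate light chain was detected above the floor. Igll1 (chromosome 16, 16860671 to 16863985, minus strand) had 3 reads over the 6 libraries, never more than 1 in a library. Vpreb1 (chromosome 16, 16868403 to 16870843, minus strand) had 7 reads, of which 3 were in WT clone 36 and none in WT clones 28 and 29. Its level is uncertain, since the transcripts of Vpreb1 and Vpreb2 are identical at 97.4% of 759 aligned bases and the authors discarded reads of low mapping quality, but the longest identical run was 196 bases. Vpreb2 had 0 reads in every library. Vpreb1 also shares 108 exon bases with Top3b on the opposite strand.

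Cd79a and Cd79b stood far above the other 7 genes in every clone. Cd79a (chromosome 7, 24897381 to 24902197, plus strand) was measured at 996.4, 1194 and 1038 normalized counts (WT 28, 29 and 36) and at 996.4, 1239 and 1507 (R98S 11, 13 and 35). Levels were compared between genes per kb of summed exon length (GENCODE vM21). On this scale Cd79a was first, with 797 ± 136 normalized counts per kb (SD, n = 6 libraries), above 86.8% of the 11021 tested genes with a known length. Cd79b was second, with 290 ± 152 per kb, above 64.1% of those genes, and its range (99.9 to 493) did not overlap that of Cd79a (684 to 1034). The remaining genes followed at 1.02 per kb or less, in the order Rag2, Vpreb1, Ebf1, Dntt, Igll1, Rag1 and Pax5, in which each gene's range overlapped that of the next. For the silent genes, 3 reads correspond to between 0.338 (Pax5) and 2.50 (Vpreb1) normalized counts per kb.

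Promoters were also searched for short motifs, as a description without a test. RefSeq promoters (GRCm38.p6, 250 bases before to 50 after the start) were matched for 8 of the 9 genes, all but Cd79b. The E-box letters CAGGTG, a form bound by E proteins, were found on either strand in promoters of 4 of these genes, compared with 20.2% of 32851 promoters. Those 4 promoters are printed 5′ to 3′ on the strand of the gene, Cd79a at chr7:24897247-24897546, Igll1 at chr16:16863936-16864235, Vpreb1 at chr16:16869206-16869505 and Rag1 at chr2:101649483-101649782. Capitals mark motif matches, which do not overlap each other.
Cd79a: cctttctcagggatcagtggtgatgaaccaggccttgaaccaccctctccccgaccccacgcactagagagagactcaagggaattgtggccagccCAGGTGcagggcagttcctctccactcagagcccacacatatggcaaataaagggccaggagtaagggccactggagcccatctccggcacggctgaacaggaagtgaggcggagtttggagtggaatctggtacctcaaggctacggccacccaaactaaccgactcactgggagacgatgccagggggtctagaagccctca
Igll1: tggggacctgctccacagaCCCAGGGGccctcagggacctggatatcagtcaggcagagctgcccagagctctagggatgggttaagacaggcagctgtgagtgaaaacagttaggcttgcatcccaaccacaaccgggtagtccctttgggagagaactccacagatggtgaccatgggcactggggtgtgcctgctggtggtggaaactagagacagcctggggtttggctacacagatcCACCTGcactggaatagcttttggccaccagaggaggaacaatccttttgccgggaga
Vpreb1: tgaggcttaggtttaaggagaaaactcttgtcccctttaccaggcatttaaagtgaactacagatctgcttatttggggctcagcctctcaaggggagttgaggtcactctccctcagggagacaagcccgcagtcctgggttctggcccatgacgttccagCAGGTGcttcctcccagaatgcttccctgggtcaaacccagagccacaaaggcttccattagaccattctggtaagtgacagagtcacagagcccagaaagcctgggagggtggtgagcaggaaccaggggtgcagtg
Rag1: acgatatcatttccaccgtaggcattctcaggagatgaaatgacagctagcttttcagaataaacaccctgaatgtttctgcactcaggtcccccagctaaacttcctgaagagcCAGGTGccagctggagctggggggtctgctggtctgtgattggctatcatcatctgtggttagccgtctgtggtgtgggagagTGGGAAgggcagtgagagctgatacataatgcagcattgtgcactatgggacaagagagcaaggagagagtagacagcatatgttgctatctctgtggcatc
The E-box starts at base 97 of the Cd79a, 243 of the Igll1, 163 of the Vpreb1 and 116 of the Rag1 promoter, counted from 1 at the 5′ end. The EBF1 core CCCNNGGG was found in 1 of the 8 genes (Igll1, base 20) and in 13.7% of all promoters. The Ikaros core TGGGAA was found in 2 of the 8 genes (Rag1, base 199, and a second promoter of Ebf1) and in 25.6% of all promoters. The octamer ATTTGCAT was found in 0 of the 8 genes and in 1.74% of all promoters. Of the 4 genes with the E-box, Cd79a was expressed and the other 3 were silent.

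To compare the genotypes, every expressed gene was tested (11550 genes, limma on log2(normalized count + 1), adjusted p threshold of 0.1). Of the 9 B cell precursor genes, 2 could be tested and 1 was called, where 23.9% of all tested genes were called. For neither of the 2 did the clones of the groups separate completely, while this was the case for 37.3% of all tested genes. With 2 genes these shares carry no comparison with the rest of the table.

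Cd79b (chromosome 11, 106311341 to 106314762, minus strand) was measured at 396.3, 142.9 and 235.2 normalized counts (WT 28, 29 and 36) and at 624.9, 705.2 and 385.8 (R98S 11, 13 and 35). The groups overlapped, as WT clone 28 lay just above R98S clone 35, and the other 2 R98S clones were above all WT clones. WT clones averaged 258.1 ± 128.2 and R98S clones 572 ± 166.2 (SD, n = 3), which is 1.22 ± 0.37 higher on the log2 scale (SE, adjusted p = 0.0617 by limma). The call rested on single clones. On leaving out WT 29 the limma adjusted p became 0.151, and it became 0.114 on leaving out WT 36, 0.175 for R98S 11 and 0.138 for R98S 13. It was also lost when the intensity trend was left out of the fit (adjusted p = 0.106 by limma). In these bulk libraries, a larger number of cells with Cd79b mRNA and more of it per cell cannot be told apart.

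For Cd79a, WT clones averaged 1076 ± 104.2 and R98S clones 1248 ± 255.5 (SD, n = 3), a difference of 0.20 ± 0.17 on the log2 scale (SE, adjusted p = 0.449 by limma). R98S clone 35 was highest and R98S clone 11 was level with the lowest WT clone, so the difference was within the spread between clones. CD79A and CD79B form a heterodimer, and the balance of their mRNAs differed between clones. The ratio of Cd79a to Cd79b per kb was 2.47, 8.20 and 4.33 (WT 28, 29 and 36) and 1.57, 1.73 and 3.84 (R98S 11, 13 and 35). Cd79a was the more abundant mRNA per kb in every clone, and its excess was greatest in WT clone 29, the clone with the least Cd79b.

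**Figure D2:**
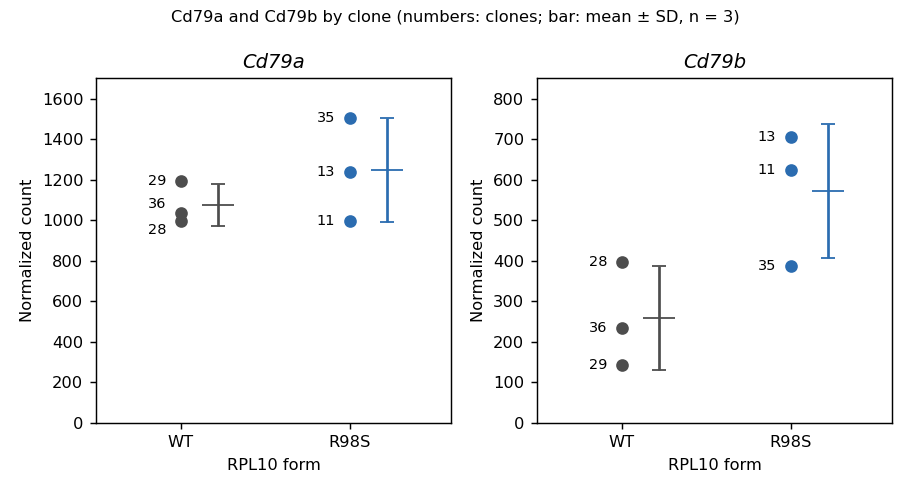
Normalized counts of Cd79a and Cd79b (vertical axes from 0) in each clone, numbered beside the points, with the mean ± SD of the 3 clones of each RPL10 form. For Cd79b, R98S clones 11 and 13 lie above all WT clones and R98S clone 35 lies beside WT clone 28, whereas the Cd79a values overlap over most of their range.

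Genes around both loci were compared as well. The 30 tested genes nearest to Cd79b had a median log2 fold change of 0.01, with 5 called higher and 3 lower, and after subtraction of their median in each clone the Cd79b difference was 1.16 (adjusted p = 0.0701 by limma). Around Cd79a the median was -0.12, with 1 gene called higher and 8 lower, and the Cd79a difference after subtraction was 0.34 (adjusted p = 0.158 by limma). The genes most like Cd79b across the 6 libraries, by the mean absolute difference of log2 values centred on each gene, were Cd160 (0.17), Lgr6 (0.21) and Slc32a1 (0.21). Since they were chosen for this likeness over the same libraries, their fold changes follow from the choice and are given as a description. These were 1.19, 1.21 and 1.18 in that order, on the log2 scale.

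The wider B lineage program was then read from lists of related genes. Among 18 other transcription factors of the lineage, 7 were expressed, 8 scarce and 3 silent (Ikzf3, Sox4 and Pou2af1). The E protein genes Tcf3 and Tcf12 were expressed at 2263 and 5618 normalized counts on average, Tcf12 having the highest mean count of the list. Per kb of exon, Tcf3 lay above Tcf12 (560 against 362). Of the 7 tested factors, 0 were called higher in R98S cells, where 10.7% of all tested genes were, and 2 were called lower, where 13.1% of all tested genes were. At an unadjusted p under 0.05 in limma there were also 0 higher and 2 lower, and edgeR and DESeq2 each called 2 of the 7. A list of 7 tested genes is too small to set against the shares of all tested genes. The median log2 fold change of the 7 was -0.44, compared with -0.01 over all tested genes. Ikzf1, which encodes the lymphoid zinc finger factor Ikaros, was measured at 27.65, 31.16 and 52.04 normalized counts (WT 28, 29 and 36) and at 10.32, 6.12 and 11.10 (R98S 11, 13 and 35). The groups did not overlap, and Ikzf1 fell by 1.88 on the log2 scale (SE 0.40, limma adjusted p = 0.0203). Its R98S mean of 9.18 was under the mean of 10 needed for testing, so it was tested only through its WT values. The counts of called factors, including 0 higher, and the median of the 7 therefore depend on this filter. Without it limma called 3 genes of the list, the added one being a gene that the filter had left out. The direction of that added call is not given here. Runx1, a factor needed for the emergence of blood stem cells, fell from 3084 ± 109.5 to 1933 ± 146.8 (SD, n = 3, limma adjusted p = 0.00654). Irf8, chosen after its values were seen, was too scarce to test, at 2.05, 2.15 and 3.00 normalized counts (WT 28, 29 and 36) and 12.20, 15.31 and 9.25 (R98S 11, 13 and 35), without overlap.

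**Figure D3:**
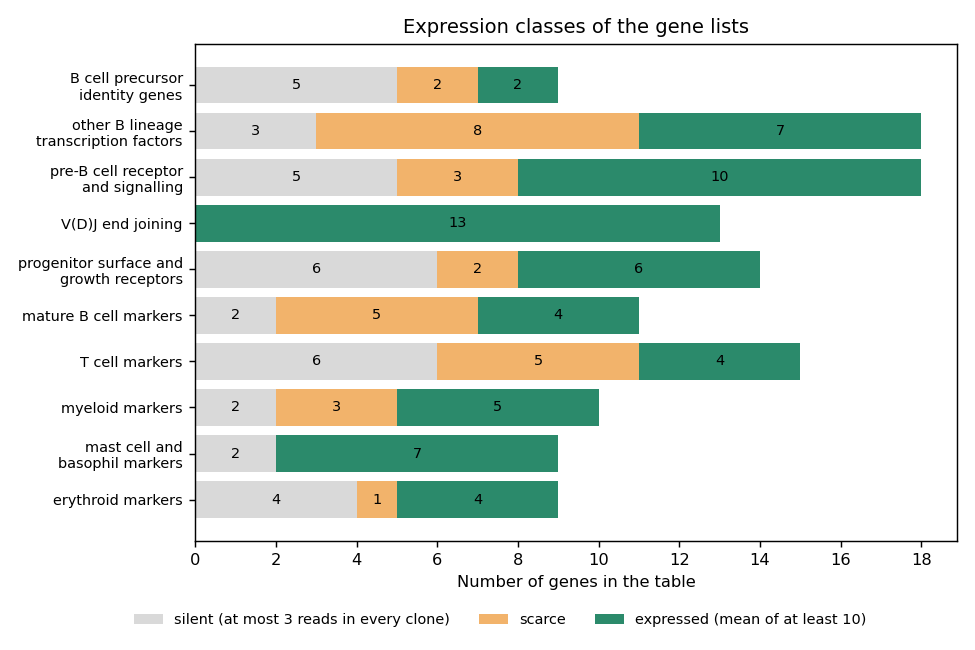
Number of genes (horizontal axis) that were silent, scarce or expressed over the 6 clones in the 9 B cell precursor genes, 4 lists of the wider program and 5 lists of cell type markers. Of the B cell precursor genes 5 are silent and 2 expressed, whereas all 13 end-joining genes are expressed.

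Of 18 genes of the pre-B cell receptor and its proximal signalling, 10 were expressed, 3 scarce and 5 silent, the last including Vpreb2, Ighm (the µ heavy chain) and the adaptor gene Blnk. The highest mean count of the list, 7202 normalized counts, was that of the phosphoinositide 3-kinase gene Pik3cd. Per kb of exon, Btk lay above Pik3cd (1794 against 1151). In this list 1 of 10 tested genes was called higher and 2 were called lower in R98S cells, near the shares of all tested genes (10.7% and 13.1%), with a median log2 fold change of -0.15. Cd72, an inhibitory receptor of B cells, was measured at 144.4, 161.2 and 146.1 normalized counts (WT 28, 29 and 36) and at 371.5, 504.2 and 417.2 (R98S 11, 13 and 35). All R98S clones lay above all WT clones, by 1.50 ± 0.17 on the log2 scale (SE, adjusted p = 0.00199 by limma). Plcg2, a phospholipase downstream of the receptor, fell from 3125 ± 388.4 to 2120 ± 275.8 (limma adjusted p = 0.0322), and the B cell scaffold gene Bank1 from 1894 ± 270.2 to 1001 ± 16.99 (SD, n = 3, limma adjusted p = 0.00528).

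The repair genes that join the ends cut by RAG proteins also serve other cell types, and all 13 in the table were expressed. In R98S cells, 4 of the 13 were called higher and 1 lower, where 10.7% and 13.1% of all tested genes were, and the median log2 fold change was 0.24. Xrcc5, encoding the DNA end-binding protein Ku80, was measured at 339.0, 443.8 and 358.3 normalized counts (WT 28, 29 and 36) and at 958.9, 817.5 and 856.7 (R98S 11, 13 and 35). The groups did not overlap and differed by 1.21 ± 0.15 on the log2 scale (SE, adjusted p = 0.00297 by limma). Its partner Xrcc6 (Ku70) rose by 0.37 (limma adjusted p = 0.0550), the nuclease gene Dclre1c (Artemis) by 0.46 (limma adjusted p = 0.0660) and the kinase gene Atm by 0.46 (limma adjusted p = 0.0557), all on the log2 scale. These last 3 calls were lost in 5 or 6 of 17 alternative fits. Hmgb2, a DNA-bending protein that assists RAG cleavage, was the most abundant of the list and fell from 19086 ± 1389 to 11617 ± 707.6 (SD, n = 3, limma adjusted p = 0.00637).

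Among 14 surface and growth receptor genes of lymphoid progenitors, 6 were expressed, 2 scarce and 6 silent, the silent ones including Kit, Cd24a, Bst1 and Cd93. Il7r, the receptor of the cytokine on which mouse B cell precursors depend, never exceeded 4 reads. Of the 6 tested genes, limma called 0 higher (also 0 at an unadjusted p under 0.05) and 1 lower, as did edgeR and DESeq2 with 1 call each. Over all tested genes these shares were 10.7% and 13.1%, and 6 tested genes are too few to set against them. The median log2 fold change of the 6 was -0.13. The gene called lower was Ptprc, which encodes CD45. It had the highest mean count of the list, although per kb of exon Spn lay above it (655 against 428). Ptprc was measured at 10713, 14068 and 8869 normalized counts (WT 28, 29 and 36) and at 5657, 4391 and 3366 (R98S 11, 13 and 35). The groups did not overlap, and Ptprc fell by 1.33 ± 0.22 on the log2 scale (SE, adjusted p = 0.00894 by limma).

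**Figure D4:**
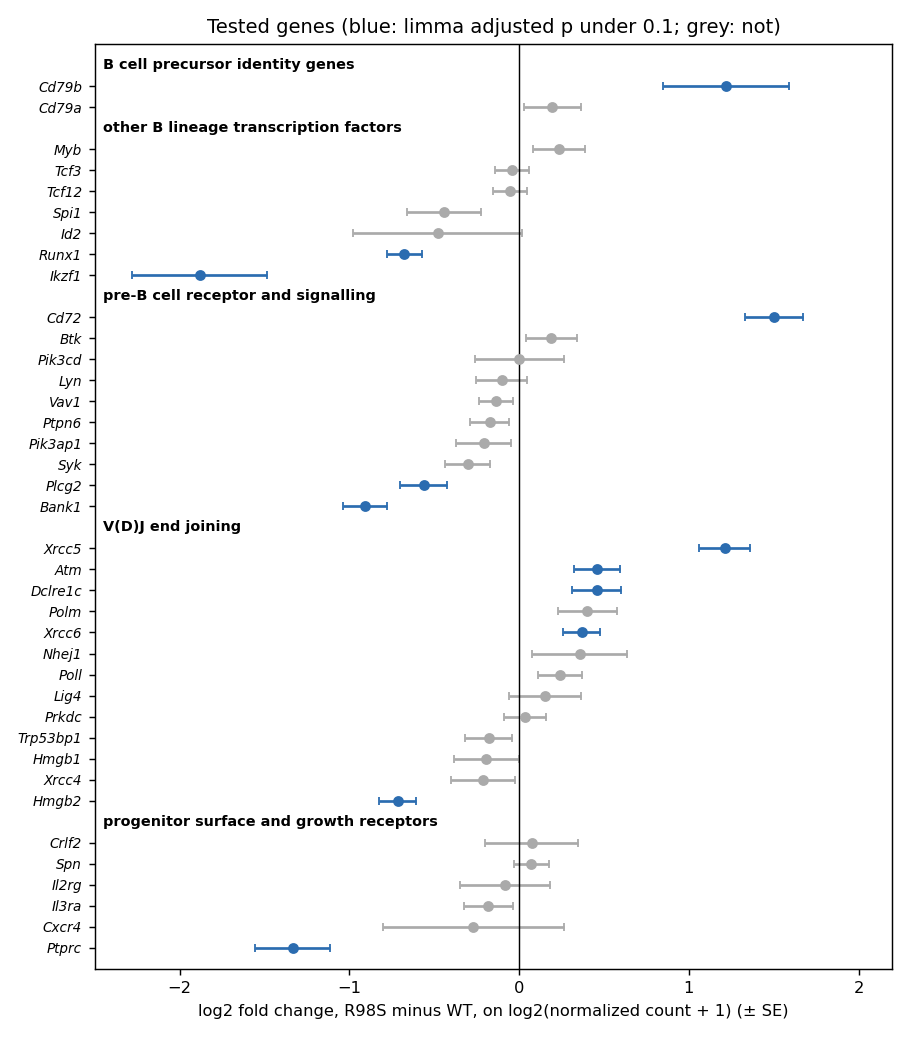
Log2 fold change of R98S against WT cells (horizontal axis, points with SE, on log2(normalized count + 1)) for each tested gene of the 5 B lineage lists, in blue where the limma adjusted p was under 0.1. Cd79b (1.22), Cd72 (1.50) and Xrcc5 (1.21) lie farthest to the right, and Ikzf1 (-1.88) and Ptprc (-1.33) farthest to the left.

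Markers of other blood cells were read beside these genes. Of 11 mature B cell markers 4 were expressed, led in mean count by Cd37, Cd74 and Cr2 (1551, 103.9 and 15.39 normalized counts). Per kb of exon, Cxcr5 lay above Cr2 (3.47 against 1.9). Of the 4 tested, 0 were called by limma, edgeR or DESeq2 (0 also at an unadjusted p under 0.05 in limma), although limma called 1 without R98S clone 13. The limma shares over the whole table were 23.9% (10.7% upward and 13.1% downward). Each marker list had only 4 to 7 tested genes, too few to set against these shares. The 9 mast cell and basophil markers were led by Gata2, Srgn and Cma1 (means of 21203, 14214 and 1508), although Cma1 was at 28.58 in R98S clone 13. Cpa3, Ms4a2, Mcpt8 and Hdc had 87.0, 31.7, 30.4 and 17.4 normalized counts per kb, below the median of 183 for tested genes, Tpsb2 was silent and Fcer1a had 0 reads in all libraries. The summed level of the 9 markers ranged from 44734 to 48337 in WT and from 24264 to 32003 in R98S clones. Gata2 and Srgn were the largest part of these sums (means of 27299 and 17028 in WT, 15106 and 11400 in R98S cells). Among the other tested markers, Cpa3 and Hdc had positive log2 fold changes (1.43 and 0.44). Those of Ms4a2, Mcpt8 and Cma1 were negative (-0.57, -0.61 and -1.36), and none of these genes was called. Of the 7 tested, Gata2 and Srgn passed the test, lower in R98S cells (limma adjusted p = 0.00666 and 0.0639). The Srgn call was lost in 7 of 17 alternative fits, including those without WT clone 28, 29 or 36 or R98S clone 11 or 35. The 10 myeloid markers, led by Cebpe, Prtn3 and Cd14, summed to 1162 to 2206 in WT and 687.4 to 872.6 in R98S clones. Cd14 led only through WT clone 28, which held 297 of its reads against 1 to 9 in the other clones. Of the 5 tested, Prtn3, Ctsg and Lyz2 were called lower (limma adjusted p = 0.00805, 0.00965 and 0.0366), Ctsg having no read in any R98S clone. Ctsg and Lyz2 reached the mean of 10 needed for testing only through WT clones (R98S means of 0 and 0.93). The 15 T cell markers, led by Lat, Lck and Cd3d, summed to 878 to 1413 in WT and 479.4 to 717 in R98S clones. Lat was the largest part of these sums (means of 998.2 in WT and 420.7 in R98S cells). Among the 4 tested T cell markers, Cd3d and Lck were called higher and Lat lower (limma adjusted p = 0.0112, 0.0355 and 0.0257). The lower sum therefore followed Lat and not the T cell markers as a set. Lck was not called without WT clone 28, and Cd8b1 had 0 reads. The 9 erythroid markers, led by Gata1, Klf1 and Epor, summed to 2184 to 3753 in WT and 2226 to 3825 in R98S clones. Among the 4 tested erythroid markers, only Hba-a1 was called, lower in R98S cells (limma adjusted p = 0.0389). Hba-a1 was not called without WT clone 28, R98S clone 11 or R98S clone 35. It reached the mean of 10 only through WT clones (means of 35.78 in WT and 2.35 in R98S cells). Hba-a1 has a near-identical copy in Hba-a2, so its level is uncertain. In the line labelled lymphoid, Pax5 and Ighm were thus silent at this depth, whereas Cd79a, Cd79b, Cd72, Bank1 and Btk were expressed. Of the 9 mast cell and basophil markers, Gata2 and Srgn had the highest means of all marker genes listed, whereas Tpsb2 and Fcer1a were silent. Both sets were therefore mixed, and the cell type of the line was not tested. The marker sums that moved with genotype stand beside the Cd79b difference, and their part in it was not tested.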

How the data were processed

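Libraries were made with a stranded mRNA kit and sequenced on an Illumina HiSeq. The submitters' processing notes name Bowtie2, TopHat, SAMtools, HTSeq and DESeq2, with mm10/GRCm38. The authors kept alignments with a mapping quality of at least 10. The gene annotation and strand setting of the counting are not given in the sources used here. The authors deposited a signal for each gene, its reads divided by a DESeq2 size factor, and 100% of them were whole multiples of 1 step per library (tolerance 0.01), so reads were recovered.

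Genes with a mean of at least 10 were compared with limma 3.58.1 (R 4.3.3) on log2(value + 1), two-sided, with an intensity trend and Benjamini-Hochberg adjustment over all 11550 tested genes. Fold changes of low genes are understated on this scale. The fit was also run on simulated counts with the same dispersion for every gene, which does not cover the spread between these clones. Clones are separate monoclonal cultures. Positions, lengths and exon overlaps came from GENCODE vM21 (GRCm38), which matched 89.5% of symbols and 95.4% of tested ones, and promoters from RefSeq. Alternatives included edgeR 4.0.16 and DESeq2 1.42.0 on recovered reads.

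The 9 genes and the lists were chosen with earlier results of these data known. All 9 genes were named. Of each list, so were every called gene, the gene with the highest mean count (of marker lists the 3 highest) and up to 4 silent genes in list order. These mean counts were not scaled by exon length. Of these silent genes, 1 is not reported here.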

Additional observations from a re-analysis of the deposited data

How the results depend on the processing

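The number of genes called moved from 2755 to between 1327 (without WT clone 28) and 3219 (without R98S clone 13) when 1 clone was left out, and to 1722 at an adjusted p threshold of 0.05. WT clone 29 and R98S clone 11 also decided it, with 1464 and 1578 genes without them. Of the B cell precursor genes tested, 1 was called in the reported fit, 0 to 1 when a clone was left out, 0 without the intensity trend and 0 at a threshold of 0.05. The log2 fold change of Cd79b was positive in all 17 alternatives, from 0.86 on leaving out WT 29 to 1.59 on leaving out WT 28, and it was called in 11 of them. Its adjusted p was 0.0750 with the edgeR quasi-likelihood test and 0.00951 with DESeq2, within a range of 0.00951 to 0.175. The log2 fold change of Cd79a ranged from 0.05 to 0.35 and was called in 0 of 17 alternatives (adjusted p from 0.158 to 0.855). Without the expression filter, the 7 silent or scarce genes had limma adjusted p-values from 0.674 to 0.994, which at these read counts says nothing about their stability. Another scaling moved the median of all tested genes from -0.01 to 0.01 (same total) or 0.03 (same upper quartile). Ikzf1, Cd72, Xrcc5 and Ptprc were called in every alternative in which they could be tested. The cause of the lost calls was not tested. Where 1 clone was left out of a group, 2 clones remained in it. Depth limits the silent and scarce genes to levels of a few reads. No paired analysis was possible because the clone numbers differ between the groups.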
